A study of Mus musculus with 9 samples.

Results

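The genes described here are 39 mouse regulators of pre-mRNA splicing, namely heterogeneous nuclear ribonucleoproteins (hnRNPs) together with the MBNL, CELF, PTB and PCBP families and other RNA-binding proteins of that kind. They were chosen by symbol, and all 39 were found among the 53715 gene rows of the deposited count table. The study compared thymocytes deleted for Srsf1, the gene of an SR (serine/arginine-rich) splicing factor, with WT thymocytes. Cells were taken from the thymus of C57BL/6 mice aged 6 to 8 weeks and sorted by flow cytometry for TCRβ, CD69, CD24, CD4 and CD8, which are the surface features of thymocytes that carry both co-receptors and have begun to signal through the T cell receptor. RNA-seq libraries were made with Smart-seq2, a method that amplifies full-length cDNA. The SRSF1KO mice had the genotype Srsf1fl/flLckcre/+, in which Cre is driven by the T-lineage Lck promoter and removes the floxed Srsf1 allele in developing T cells, and gave 2 libraries. The WT mice gave 3 libraries, and whether they carried the floxed alleles or Cre is not given in the labels. The 4 CLIP-seq samples of the series, 2 pulled down for SRSF1 and 2 with IgG as control, were not analysed here. Nothing in the labels tells whether each library had its own animal. Sex-linked genes differed within both groups, so the libraries of a group were not all repeats from 1 animal, but whether WT replicates 1 and 3 were separate animals is not known, and a p-value here reflects only how far these libraries differ.

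Splicing regulators bind short sequence elements in exons and introns of the pre-mRNA and change how often a nearby splice site is used. SR proteins such as SRSF1 mostly act through exonic enhancers, whereas many hnRNPs act through silencers, and SRSF1 and hnRNP A1 are the classical example of factors with opposing effects on splice site choice. Several members have known targets in T cells, among them the variable exons of the phosphatase CD45 that hnRNP LL silences. The counts used here are per gene: they give the level of each regulator's own mRNA and do not show which exons or isoforms were used, nor protein.

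Library totals lay between 36026006 and 38985285 counts. Levels are CPM, counts scaled to a common library size, after trimmed mean of M values (TMM) scaling, and the 9 marker genes of the sorted thymocytes summed to between 10114 and 11810 CPM in the SRSF1KO libraries and between 10204 and 11038 CPM in the WT libraries. Within that list, Cd4 stood at 1229 and 1118 CPM in SRSF1KO, against 881, 767 and 932 CPM in WT (edgeR adjusted p = 0.136; DESeq2 adjusted p = 0.00475). Trac, the constant gene of the T cell receptor alpha chain, lay the other way, at 1000 and 1007 CPM in SRSF1KO, against 1174, 1188 and 1190.2 CPM in WT (edgeR adjusted p = 0.23; DESeq2 adjusted p = 0.122), and the groups overlapped in the other 7 genes. The 6 erythroid marker genes summed to between 22.9 and 99.1 CPM in SRSF1KO libraries and between 2.54 and 12.7 CPM in WT libraries. The 5 markers of natural killer and gamma delta T cells summed to between 69.5 and 83.8 CPM in SRSF1KO libraries and between 46.3 and 67.9 CPM in WT libraries. Of these, Trdc stood higher without overlap, at 56.9 and 43.9 CPM in SRSF1KO, against 27.5, 30.6 and 32.1 CPM in WT. Klrd1 stood lower without overlap, at 2.8 and 1.06 CPM in SRSF1KO, against 6.92, 7.25 and 6.86 CPM in WT, and the other 3 overlapped. The B cell, myeloid and stromal sums overlapped between the groups. Pecam1 made up most of the stromal sum, at 178 and 201 CPM in SRSF1KO, against 158, 151 and 193 CPM in WT. The sum therefore says little about the rarer stromal genes. Krt8, Psmb11 and Foxn1 had 109, 70 and 12 counts in SRSF1KO replicate 1, and at most 45, 28 and 1 in any other library. Col1a1, Krt5 and Pdgfra were highest in other libraries. Both groups were mixed in their sex-linked genes, and SRSF1KO replicate 1 and WT replicate 2 were the libraries with more Ddx3y than Xist. SRSF1KO replicate 1 had 282 counts of Xist and 5699 of Ddx3y, and WT replicate 2 had 1369 and 5803. Whether WT replicate 2 held cells of both sexes is not known. The part of these differences in the results on the members was not tested, apart from a fit with the sex pattern as a term. In such bulk samples, fewer cells of a type and less RNA per cell cannot be told apart.

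The targeted gene followed the labels. Srsf1 stood at 42.6 and 30.9 CPM in the SRSF1KO libraries, against 96.9, 122.7 and 103 CPM in the WT libraries, and the groups did not overlap. Its log2 fold change was −1.55 ± 0.19 (SE; adjusted p = 0.0483, edgeR's quasi-likelihood test with Benjamini-Hochberg adjustment over all genes tested), and it lost this call when any 1 library was left out. These counts cover the whole gene, so reads from exons outside the floxed part are included.

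The mRNA levels of the hnRNPs and their relatives differed little between the groups. Of the 39 members, 38 passed the filter on low counts, with levels between 10.8 and 1520 CPM over all libraries, and none was called at an adjusted p under 0.05 by edgeR in either direction. Over the whole table of 17351 tested genes, edgeR called 0.0519% of genes higher and 0.213% lower in SRSF1KO, so a count of 0 among 38 members is near the background. These shares stand for 9 and 37 genes, and no gene was called in either direction when any 1 WT library was left out, whereas 3 and 8 were called without SRSF1KO replicate 1 and 21 and 67 without SRSF1KO replicate 2. At an unadjusted p under 0.05 edgeR had 7 members higher and 1 lower, which is 18.4% and 2.63% of the members tested, beside 5.9% and 8.45% of all genes tested (14.4% in both directions together). Among genes that averaged at least 10 CPM, as all tested members did, these background shares were 8.36% and 11.6%. DESeq2 called 3 members higher (Mbnl2, Hnrnpm and Celf1) and none lower, which is 7.9% higher beside 2.34% higher and 3.87% lower over all genes that it tested, and 3.41% higher over genes of at least 10 CPM; limma-voom called none, beside 0.542% of all genes in both directions together.

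The median log2 fold change over the 38 members was 0.04, beside −0.01 over all genes tested, and the members' values ran between −0.61 and 0.62. The typical size of a difference, the median absolute log2 fold change, was 0.17 for the members and 0.35 for all genes. The median standard error was 0.12 for the members and 0.36 for all genes. All tested members averaged at least 10 CPM, and these medians were not taken over other genes of that level. Whether the gap goes with the level of expression was therefore not tested. For 36 of the 38 members the 95% interval of the log2 fold change lay within −1 and 1, beside 41.6% of all genes, and for 21 members it lay within −0.5 and 0.5, beside 14.2% of all genes. Among the 8694 genes of at least 10 CPM, a floor chosen after the values were seen, 28.3% had an interval within −0.5 and 0.5. Counted without a model, both SRSF1KO libraries stood above all WT libraries for 12 members and below them for 3, which is 31.6% and 7.9%. Beside these stood 15.2% and 17.8% of all genes tested (32.9% in either direction), and 16.6% and 21.1% of the 8694 genes above that floor. In the other 23 members the groups overlapped.

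**Figure D1:**
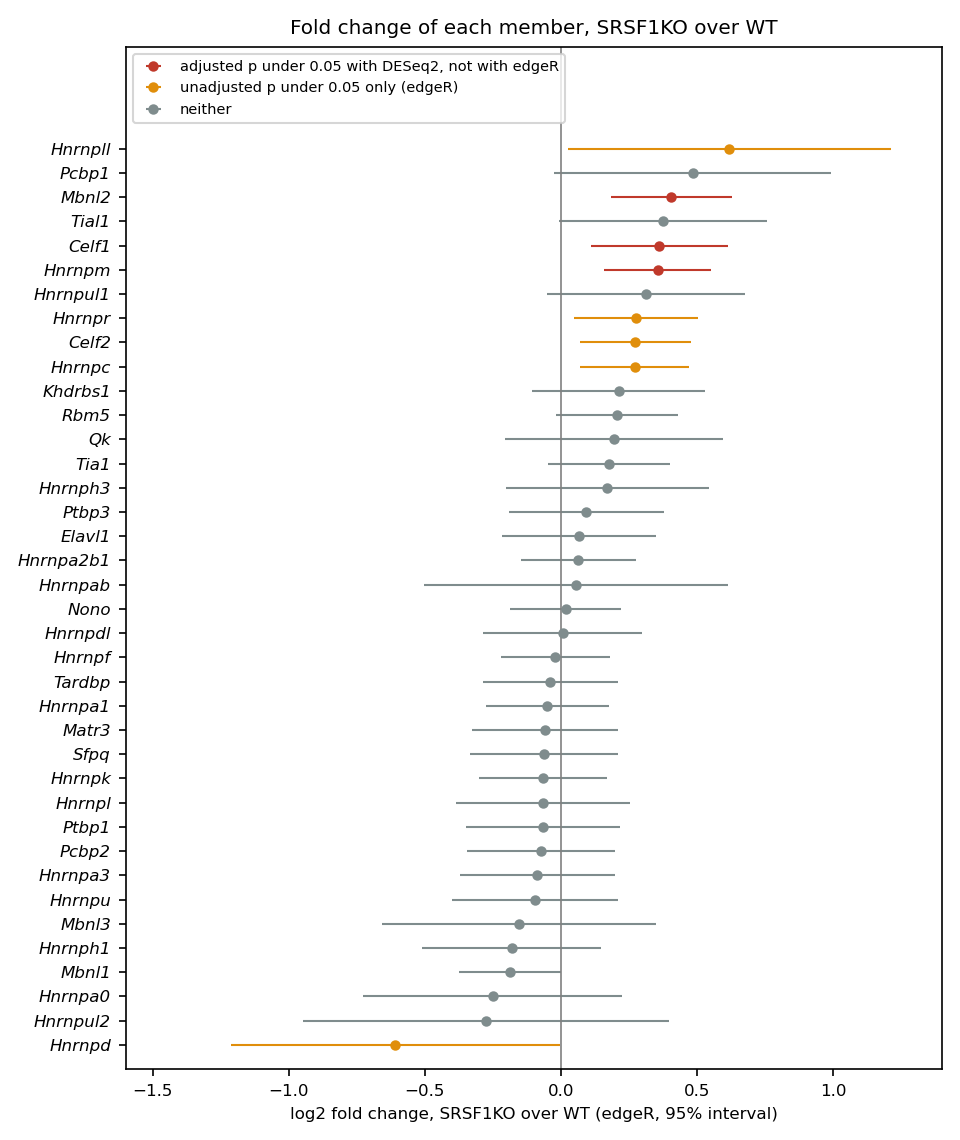
Log2 fold change of the 38 tested members, SRSF1KO over WT, from edgeR's quasi-likelihood fit, with 95% intervals as bars and 1 gene per line. The 3 members called by DESeq2 (Mbnl2, Hnrnpm and Celf1) lie between 0.36 and 0.41, and the intervals of Hnrnpll and Hnrnpd are the widest of those that exclude 0.

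Mbnl2, Hnrnpm and Celf1 had the smallest unadjusted p of the members by edgeR and were the only 3 that DESeq2 called. The WT libraries of Celf1 spanned 1.22-fold, more than those of Hnrnpc (1.08-fold), Hnrnpr (1.09-fold) and Celf2 (1.10-fold), which were not called. The promoter sequences of Mbnl2, Hnrnpm and Celf1 are shown because DESeq2 called all 3 higher in the SRSF1KO libraries. Each stretch is the 110 bases before the start of the RefSeq gene span in GRCm38.p6, 5′ to 3′ on the gene's strand, at chr14:120275542-120275651 (plus strand) for Mbnl2, chr17:33685459-33685568 (minus strand) for Hnrnpm and chr2:90940149-90940258 (plus strand) for Celf1. Capitals mark a match to 1 of 6 motifs searched on both strands.
Mbnl2: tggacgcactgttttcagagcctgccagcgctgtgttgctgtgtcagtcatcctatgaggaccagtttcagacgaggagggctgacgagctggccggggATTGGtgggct
Hnrnpm: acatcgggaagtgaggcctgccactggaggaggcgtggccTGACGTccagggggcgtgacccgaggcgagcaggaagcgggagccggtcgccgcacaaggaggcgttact
Celf1: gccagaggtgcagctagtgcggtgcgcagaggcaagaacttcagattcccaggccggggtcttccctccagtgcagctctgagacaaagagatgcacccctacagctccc

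The 6 motifs, none of which contains another, were these. The TATA element was searched as TATAAA, and the CCAAT box by its own letters. The box bound by Sp proteins was searched as GGGCGG, the core bound by ETS proteins as CCGGAAG, and the E-box as CACGTG. The element bound by CREB proteins was searched as TGACGT, which is only part of it. The Mbnl2 stretch held the CCAAT box, read on the reverse strand as ATTGG, 11 bases before the gene start, and 20.2% of all 32851 RefSeq promoter stretches of this length held 1. The Hnrnpm stretch held TGACGT 70 bases before the start, as did 4.32% of all stretches, and the Celf1 stretch held none of the 6. None of the motifs was shared by the 3 genes. They differed in base composition as well, with 5 CpG dinucleotides in Mbnl2, 11 in Hnrnpm and 3 in Celf1, beside a median of 3 over all stretches. The background stretches end before the start of each RefSeq promoter entry, which need not be the start of the gene span. Which start is used in these thymocytes cannot be read from counts per gene.

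The MBNL proteins, or muscleblind proteins, bind YGCY elements in pre-mRNA, and their sequestration on expanded CUG repeats underlies the splicing defects of myotonic dystrophy. Mbnl2 stood at 182 and 170.4 CPM in the SRSF1KO libraries, against 132, 132 and 134 CPM in the WT libraries. Both SRSF1KO libraries were above all WT libraries, which lay within 1.01-fold of each other, the narrowest WT range of any member. Its log2 fold change was 0.41 ± 0.09 (SE), with an adjusted p of 0.132 by edgeR's quasi-likelihood test, the smallest of any member, and of 0.00776 by DESeq2. Mbnl1, its broadly expressed paralogue, lay on the other side: it stood at 676 and 684 CPM in SRSF1KO, against 786, 749 and 787 CPM in WT, without overlap, and at −0.19 ± 0.08 it was not called (edgeR adjusted p = 0.352). Mbnl3, the third paralogue, had 17.8 and 17.1 CPM in SRSF1KO and 18 to 22 CPM in WT, a log2 fold change of −0.15 ± 0.22 (edgeR adjusted p = 0.833).

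CELF proteins bind GU-rich elements and oppose MBNL proteins at many exons, and CELF1 also promotes the decay of mRNAs that carry such elements. Celf1 stood at 360.2 and 371 CPM in SRSF1KO, against 278, 259 and 316 CPM in WT. Its log2 fold change was 0.36 ± 0.11, past the threshold with DESeq2 (adjusted p = 0.0432) and not with edgeR's quasi-likelihood test (adjusted p = 0.207). Celf2, which regulates activation-dependent splicing in human T cells, had 535 and 561 CPM in SRSF1KO and 473, 429.8 and 457 CPM in WT. Both CELF genes thus stood higher in each SRSF1KO library than in each WT library, and Celf2 at 0.27 ± 0.09 was not called by edgeR (adjusted p = 0.232) or DESeq2 (adjusted p = 0.0689).

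**Figure D2:**
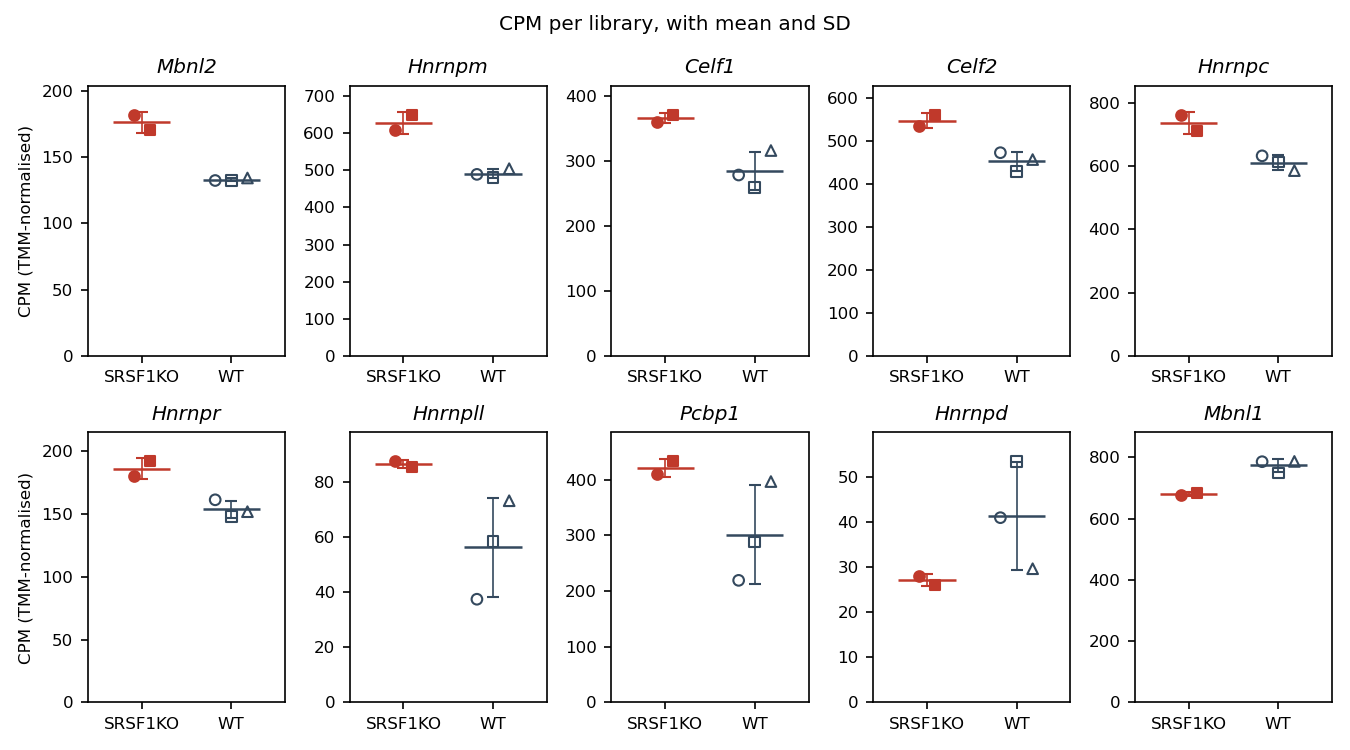
TMM-normalised CPM of 10 members in each library, SRSF1KO left and WT right in every panel, with 1 symbol per library, a line at the group mean and a bar of 1 SD (n = 2 and 3). Mbnl2, Hnrnpm, Celf1, Celf2, Hnrnpc, Hnrnpr, Hnrnpll and Pcbp1 have both SRSF1KO libraries above all WT libraries, and Hnrnpd and Mbnl1 have both below, while the WT values of Hnrnpll, Pcbp1 and Hnrnpd are far apart from each other.

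Hnrnpm encodes a GU-rich-binding hnRNP that acts as a silencer or an enhancer depending on the exon. It stood at 608 and 649 CPM in SRSF1KO libraries, against 489, 480.4 and 504 CPM in WT libraries. The gap between the groups was wider than the spread within either, with means of 628 ± 29.4 CPM in SRSF1KO and 491 ± 12.2 CPM in WT (SD, n = 2 and 3). The log2 fold change was 0.36 ± 0.08, with an adjusted p of 0.136 by edgeR's quasi-likelihood test, 0.0844 by limma-voom and 0.00565 by DESeq2. Over 13 alternative settings the log2 fold change stayed between 0.33 and 0.40 for Hnrnpm, between 0.36 and 0.47 for Mbnl2 and between 0.30 and 0.45 for Celf1. The adjusted p over those settings ran between 0.00565 and 0.5 for Hnrnpm, between 0.00776 and 0.483 for Mbnl2 and between 0.0432 and 0.47 for Celf1. The call thus rested on DESeq2. That the direction stayed is no support, since all settings reuse the same libraries. In these genes both SRSF1KO libraries stood above all WT libraries, so leaving out 1 library could hardly turn it.

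The A/B-type hnRNPs are core proteins of hnRNP particles, and Hnrnpa1, the classical antagonist of SRSF1, was level between the groups. Hnrnpa1 stood at 402 and 389 CPM in SRSF1KO libraries, against 388, 446 and 395 CPM in WT libraries. The groups overlapped, and the 95% interval of its log2 fold change ran between −0.28 and 0.18. Hnrnpa2b1, which takes part in RNA trafficking as well as splicing, had a value of 0.06 ± 0.09, Hnrnpa3 one of −0.09 ± 0.12, and Hnrnpa0, a binder of AU-rich elements, one of −0.25 ± 0.20, all with overlapping groups. Hnrnpab (0.06 ± 0.24) and Hnrnpdl (0.01 ± 0.12), relatives of hnRNP D, overlapped as well. Hnrnpd encodes AUF1, which binds AU-rich elements and takes part in mRNA decay, and was the member with the lowest log2 fold change and the only one lower at an unadjusted p under 0.05. It stood at 28.0 and 26.1 CPM in SRSF1KO libraries, against 40.9, 53.4 and 29.6 CPM in WT libraries, with WT replicate 3 close to the SRSF1KO libraries. The log2 fold change was −0.61 ± 0.26 (edgeR adjusted p = 0.345), and it was −0.38 without WT replicate 2. Hnrnpa1 and Hnrnpa3 have processed pseudogenes that could have shared their reads, so their counts are less certain.

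Hnrnpc and Hnrnpr stood higher in SRSF1KO by nearly the same factor. hnRNP C binds uridine tracts and, in human cells, keeps U2AF from cryptic exons, and Hnrnpc stood at 761 and 711 CPM in SRSF1KO, against 632, 612 and 585 CPM in WT. hnRNP R is a close relative of SYNCRIP, and Hnrnpr had 179.9 and 192 CPM in SRSF1KO, against 161, 148 and 152 CPM in WT. Neither gene had overlapping groups. The log2 fold changes were 0.27 ± 0.09 for Hnrnpc (edgeR adjusted p = 0.227; DESeq2 adjusted p = 0.0558) and 0.28 ± 0.10 for Hnrnpr (edgeR adjusted p = 0.274; DESeq2 adjusted p = 0.132), and neither was called.

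The hnRNPs F and H bind G tracts, and their genes were level or scattered. Hnrnph1, with the smallest p of these genes, stood at 343 and 347 CPM in SRSF1KO libraries, against 403, 449 and 323 CPM in WT libraries, so that both SRSF1KO values lay inside the WT range. Its log2 fold change was −0.18 ± 0.14 (edgeR adjusted p = 0.634). Hnrnpf (−0.02 ± 0.09) and Hnrnph3 (0.17 ± 0.16) overlapped too.

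The KH-domain proteins hnRNP K, PCBP1 and PCBP2 bind C-rich RNA. Pcbp1, an intronless gene, stood at 410.0 and 433 CPM in SRSF1KO libraries, against 219, 288 and 397 CPM in WT libraries. Both SRSF1KO values were above all WT values, but the WT libraries spanned 1.81-fold and WT replicate 3 nearly reached the SRSF1KO level. The log2 fold change was 0.48 ± 0.22 (edgeR adjusted p = 0.371), 0.31 without WT replicate 1 and 0.74 without WT replicate 3. Hnrnpk had a log2 fold change of −0.07 ± 0.10, and Pcbp2 one of −0.07 ± 0.12, with overlapping groups in both.

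hnRNP L and hnRNP LL bind CA-rich elements and silence the variable exons of CD45, the second of them in activated lymphocytes. Hnrnpll stood at 87.3 and 85.3 CPM in SRSF1KO libraries, against 37.4, 58.3 and 73.0 CPM in WT libraries. The SRSF1KO libraries differed by far less than the WT libraries, which spanned 1.95-fold, the widest WT range of any member. The log2 fold change was 0.62 ± 0.25, the highest of the members and not called (edgeR adjusted p = 0.33; DESeq2 adjusted p = 0.124), and it was 0.40 without WT replicate 1. Hnrnpl (−0.07 ± 0.14) overlapped between the groups. So did the polypyrimidine tract binding proteins, with Ptbp1, a broad repressor of exons, at −0.07 ± 0.12 and Ptbp3, its relative of blood cells, at 0.09 ± 0.12.

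hnRNP U is a nuclear scaffold protein that binds RNA and chromatin, and its relatives UL1 and UL2 share its SAP and SPRY domains. Hnrnpul1 stood at 180.1 and 148 CPM in SRSF1KO libraries, against 109.9, 138 and 149 CPM in WT libraries, with SRSF1KO replicate 2 just inside the WT range. Its log2 fold change was 0.31 ± 0.16 (edgeR adjusted p = 0.419), the largest positive value among members whose groups overlapped. Hnrnpu (−0.10 ± 0.13) and Hnrnpul2 (−0.28 ± 0.29) lay below 0 with overlap.

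Qk and Khdrbs1 encode the STAR proteins Quaking, a regulator of splicing and circular RNA formation, and SAM68, which links cell signalling to the splicing of CD44. Khdrbs1 had 318 and 303 CPM in SRSF1KO and 254, 235 and 316 CPM in WT, a log2 fold change of 0.21 ± 0.14 with overlapping groups (edgeR adjusted p = 0.546). Qk had 32.5 and 34.1 CPM in SRSF1KO and 29.0, 31.2 and 27.1 CPM in WT, without overlap, at 0.19 ± 0.17 (edgeR adjusted p = 0.69). TIA1 and TIAL1 bind U-rich stretches beside weak splice donors and help recruit U1, and ELAVL1, or HuR, stabilises mRNAs with AU-rich elements. Tial1 stood at 52.2 and 44.9 CPM in SRSF1KO, against 41.3, 35.4 and 35.6 CPM in WT, and Tia1 at 194 and 216 CPM in SRSF1KO, against 181, 179 and 184 CPM in WT. Neither TIA gene overlapped between the groups, at log2 fold changes of 0.37 ± 0.16 (edgeR adjusted p = 0.358) for Tial1 and 0.18 ± 0.10 (edgeR adjusted p = 0.463) for Tia1, while Elavl1 did at 0.07 ± 0.12.

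Rbm5, whose product regulates the splicing of the death receptor FAS in human cells, had 515 and 463 CPM in SRSF1KO libraries, against 443, 399 and 429.9 CPM in WT libraries, with no overlap and a log2 fold change of 0.21 ± 0.10 (edgeR adjusted p = 0.381). Tardbp encodes TDP-43, a repressor of cryptic exons, and was level, at 194 and 168 CPM in SRSF1KO and 190.3, 177 and 189.7 CPM in WT (−0.04 ± 0.11, edgeR adjusted p = 0.926). SFPQ and NONO are paired paraspeckle proteins and MATR3 is a nuclear matrix protein that binds RNA. Sfpq had 112 and 103 CPM in SRSF1KO and 111, 121 and 104 CPM in WT (−0.06 ± 0.12, edgeR adjusted p = 0.884), and Nono (0.02 ± 0.09) and Matr3 (−0.06 ± 0.11) were as level, with overlapping groups in all 3. Rbfox2, which binds GCAUG elements, did not pass the filter: it had 0 counts in both SRSF1KO libraries and 3, 0 and 3 counts in the WT libraries, too few for a comparison at this depth.

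**Figure D3:**
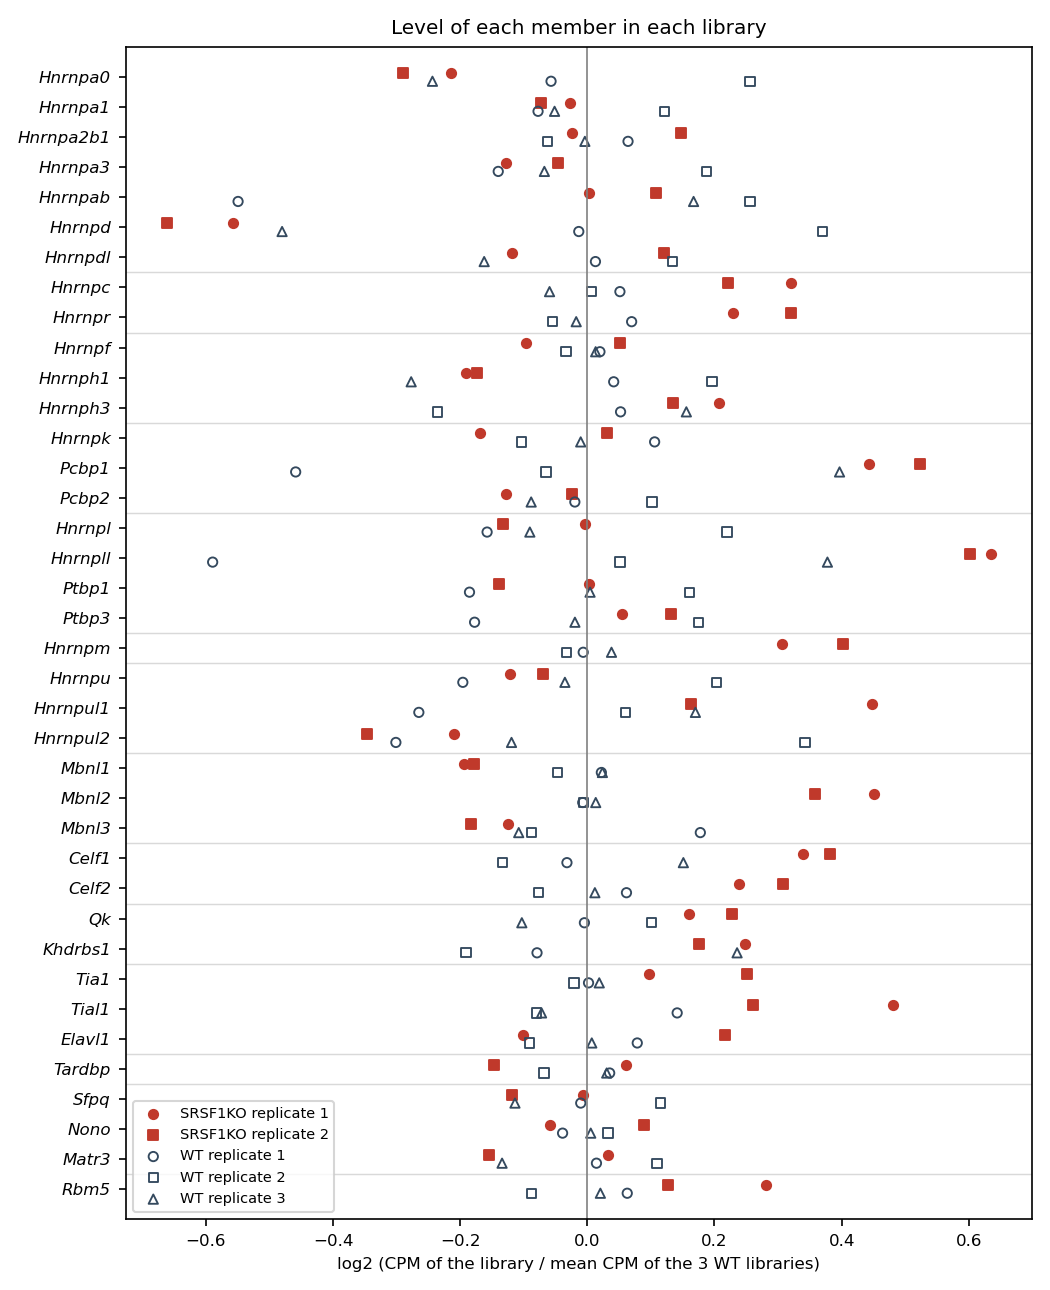
Level of each of the 38 tested members in each library as the log2 ratio to the mean of the 3 WT libraries, with 1 gene per line, ordered by role, filled symbols for SRSF1KO and open symbols for WT. The WT symbols of Hnrnpll, Pcbp1, Hnrnpd and Hnrnpab spread most, and those of Mbnl2 lie almost on each other.

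Of the 38 tested members, 21 had a log2 fold change above 0, which is 55.3% beside 49.4% of all genes tested. By role, both CELF genes, both genes of the C and R type, both STAR genes and all 3 U-rich binders were positive. Of these, Khdrbs1 and Elavl1 had overlapping groups, and Elavl1 turned to −0.08 without SRSF1KO replicate 2. The role groups were chosen with earlier results known. The A/B type held 3 positive and 4 negative values. The MBNL, F/H, K homology and U groups and the group of Sfpq, Nono and Matr3 each held 1 positive and 2 negative values, and the L and PTB group held 2 of each. The members together took 1.21% and 1.24% of all counts in the SRSF1KO libraries, against 1.19%, 1.16% and 1.16% in the WT libraries. Their summed level was 12053 and 12527 CPM in SRSF1KO, against 11629, 11676 and 11714 CPM in WT, so both SRSF1KO sums were above all WT sums by a margin that is small beside the totals. The difference of the group means, SRSF1KO minus WT, was 617 CPM, and it was 380.2 CPM without SRSF1KO replicate 2 and 853 CPM without SRSF1KO replicate 1.

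Ratios within a library do not depend on its scaling. The log2 ratio of 2 related members was therefore read in each library for 15 pairs that were named with earlier results known, as a description with no test, since 2 libraries against 3 cannot reach p under 0.05 in an exact test. The groups did not overlap in 7 pairs and overlapped in the other 8. Nothing can be read from that count or its direction, since the pairs and their order were chosen with results known, no share over other gene pairs stands beside it, and Hnrnpa1 over Srsf1 is fixed by the deletion. Mbnl2 over Mbnl1 had log2 ratios of −1.90 and −2.0 in SRSF1KO, against −2.57, −2.50 and −2.55 in WT, a difference of 0.59 in which Mbnl2 stood higher and Mbnl1 lower. This was the tightest of the ratios that differed: over all alternatives its difference stayed between 0.54 and 0.65. Scaling cannot change that difference, and it moved by more than 1 SD when either SRSF1KO library was left out. Hnrnpll over Hnrnpl had −0.83 and −0.74 in SRSF1KO, against −1.90, −1.64 and −1.0 in WT. Pcbp1 over Pcbp2 had 2.19 and 2.17 in SRSF1KO, against 1.18, 1.45 and 2.1 in WT. In both of these pairs WT replicate 3 lay nearer to the SRSF1KO libraries than to WT replicate 1. Hnrnpdl over Hnrnpd had 3.12 and 3.46 in SRSF1KO, against 2.71, 2.45 and 3.0 in WT. Hnrnpul1 over Hnrnpul2 had 3.92 and 3.77 in SRSF1KO, against 3.30, 2.98 and 3.55 in WT. Both ratios differed by 0.57 between the group means, and in both WT replicate 3 was again the WT library nearest to SRSF1KO. Ptbp3 over Ptbp1 had −0.73 and −0.51 in SRSF1KO, against −0.78, −0.77 and −0.81 in WT, a difference of 0.16 that was 0.27 without SRSF1KO replicate 1 and 0.05 without SRSF1KO replicate 2. Celf1 over Celf2 did not separate the groups, at −0.57 and −0.60 in SRSF1KO and −0.77, −0.73 and −0.53 in WT. The ratio of the classical antagonists, Hnrnpa1 over Srsf1, was 3.24 and 3.65 in SRSF1KO, against 2.0, 1.86 and 1.94 in WT. In this difference of 1.51, Hnrnpa1 had its log2 fold change of −0.05 and Srsf1, the deleted gene, its −1.55.

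**Figure D4:**
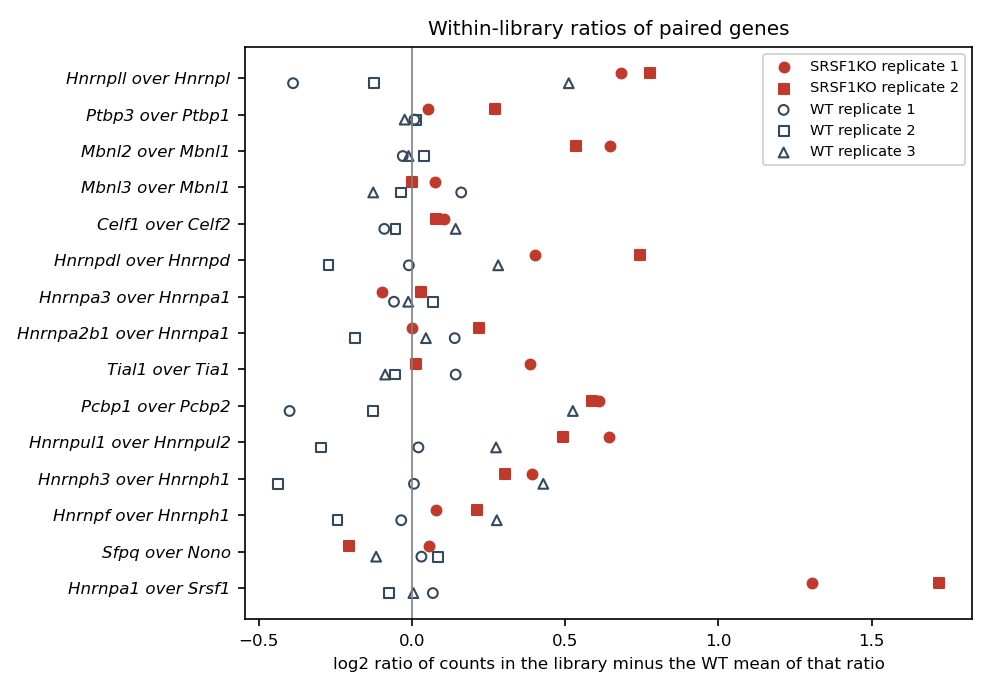
Log2 ratio of the counts of 2 genes within each library, minus the WT mean of that ratio, for 15 pairs, with filled symbols for SRSF1KO and open symbols for WT. The SRSF1KO symbols lie right of all WT symbols in 7 pairs, by most in Hnrnpa1 over Srsf1, and WT replicate 3 is the rightmost WT symbol in Hnrnpll over Hnrnpl, Hnrnpdl over Hnrnpd, Pcbp1 over Pcbp2 and Hnrnpul1 over Hnrnpul2.

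The WT libraries differed among themselves more than the SRSF1KO libraries did for several members. The highest WT library exceeded the lowest by a median of 1.18-fold over the 38 members, and by more than 1.5-fold for 5 members, which were Hnrnpll, Pcbp1, Hnrnpd, Hnrnpab and Hnrnpul2. The SRSF1KO libraries differed by a median of 1.07-fold and by at most 1.25-fold (Elavl1). With 3 libraries in one group and 2 in the other, the WT range has more values in which to widen. WT replicate 3 was the WT library nearest to the SRSF1KO mean for 23 of the 38 members, WT replicate 1 for 9 and WT replicate 2 for 6. Over the members, the median absolute log2 difference was 0.0886 between SRSF1KO replicate 1 and WT replicate 3 and 0.135 between SRSF1KO replicate 2 and WT replicate 3. It was 0.101 between the SRSF1KO libraries and between 0.107 and 0.164 among WT libraries, so that in these genes WT replicate 3 was about as near to SRSF1KO as the libraries of a group were to each other. WT replicate 2 was the farthest from both SRSF1KO libraries, at 0.269 and 0.268. The members' median log2 fold change was 0.01 without WT replicate 1, 0.04 without WT replicate 2 and 0.05 without WT replicate 3, beside 0.12 without SRSF1KO replicate 1 and 0.02 without SRSF1KO replicate 2.

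**Figure D5:**
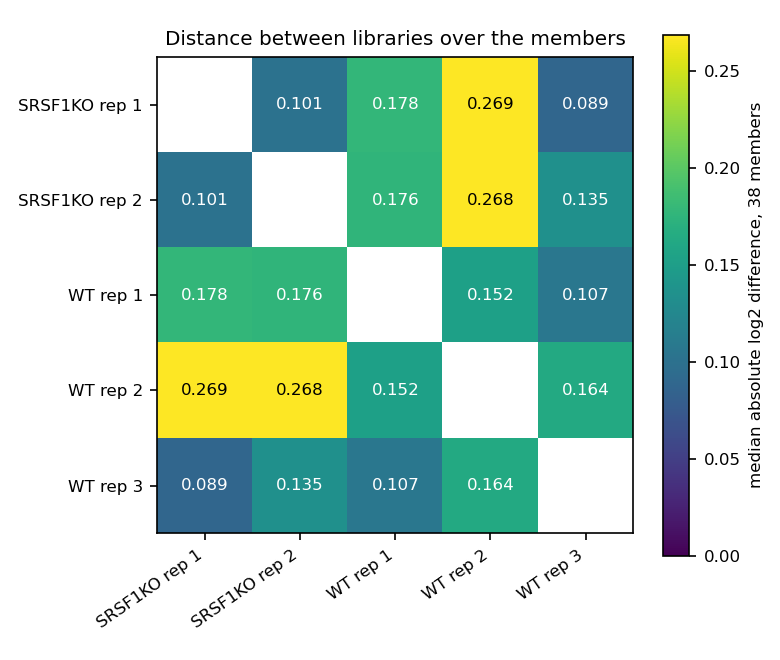
Median absolute log2 difference over the 38 tested members between each pair of the 5 libraries, as a coloured square with its value. WT replicate 3 and SRSF1KO replicate 1 form the closest pair at 0.0886, and WT replicate 2 and SRSF1KO replicate 1 the most distant at 0.269.

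The 5 libraries can be split by sex pattern, which leaves 1 SRSF1KO library in each split, against 2 WT libraries with more Xist and 1 with more Ddx3y. Within the libraries with more Xist than Ddx3y the median log2 difference over the members was 0.09, and within those with more Ddx3y it was −0.05. RNA reads from overlapping genes are a further limit, since the strand setting of the counting is not given in the sources used here. In RefSeq 16 of the 39 members overlap another gene. Among the members named most, Hnrnpm and Celf1 overlap none. Mbnl2 overlaps 3 lncRNA genes, of which Gm26679 averaged 22.8 counts per library beside 5526 for Mbnl2, and for Gm52122, with the longest overlap, and LOC115486414 no count was matched, so their share of the Mbnl2 reads is not known.

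A wider list held 64 other regulators, that is splicing regulators and further RNA-binding proteins that need not act in splicing. Of these, 51 were tested and none was called by edgeR in either direction. At an unadjusted p under 0.05, 6 of the 51 stood higher and 4 lower, beside 5.9% and 8.45% of all genes tested. Their median log2 fold change was 0.07, which was 0.01 without SRSF1KO replicate 2. DESeq2 called Mov10 and Khdrbs3 lower and none higher, beside 3.87% of genes lower and 2.34% higher over the whole table, and limma-voom called 1, Mov10. Mov10, an RNA helicase with a role in microRNA and antiviral pathways, stood at 52.5 and 64.5 CPM in SRSF1KO, against 113, 105 and 108 CPM in WT. Its log2 fold change was −0.90 ± 0.13, just short of the threshold in edgeR (adjusted p = 0.0581) and past it in DESeq2 (adjusted p = 1.8e-06) and limma-voom (adjusted p = 0.0444). Mov10 was past it in edgeR as well with no filter on low counts (adjusted p = 0.00095) and with a minimum mean of 5 CPM (adjusted p = 0.00906). In these settings edgeR called 346 and 233 genes lower over the whole table, against 37 in the main fit. Mov10 was not called by edgeR with size factor or upper quartile scaling, the replicate block, the sex term or any WT library left out. Khdrbs3, a STAR relative of Khdrbs1, had 0 counts in both SRSF1KO libraries and 45, 35 and 23 counts in the WT libraries. By counting error alone, a floor of 3 counts per library would put Khdrbs3 at least 11-fold lower in SRSF1KO (edgeR adjusted p = 0.136, DESeq2 adjusted p = 0.00667). That bound is not firm, since genes with few counts varied beyond counting error. Celf3, on the same list, had 0 and 215 counts in the SRSF1KO libraries and 103, 74 and 152 counts in the WT libraries. Cirbp, a cold-inducible RNA-binding protein, had 58.2 and 69.4 CPM in SRSF1KO and 92.4, 86.1 and 85.5 CPM in WT, at −0.47 ± 0.13 (edgeR adjusted p = 0.188). Zranb2, a zinc finger splicing factor, had 127 and 148 CPM in SRSF1KO and 105, 101 and 112 CPM in WT, at 0.38 ± 0.12 (edgeR adjusted p = 0.215).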

How the data were processed

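The authors deposited unnormalised read counts per gene for 53715 versioned Ensembl mouse gene IDs in 5 RNA-seq libraries. The submitters' processing notes name the build mm10 and, without roles, HTSeq 0.6.1, Bowtie2 2.1.0, DESeq2 1.20.0, HOMER 4.9.1, Trim Galore, cutadapt 1.17 and FastQC 0.11.5. Not given in the sources used here are the strand setting, the annotation release and the program that aligned the RNA-seq reads. Symbols came from a names table (53620 IDs matched), and gene spans and promoters from RefSeq GRCm38.p6, where 33 of the 39 members had a promoter entry. The member list, the role groups, the pairs and the other regulators were chosen with earlier results of these data known.

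All genes were fitted together with edgeR 4.0.16 in R 4.3.3 (TMM scaling, filterByExpr, robust glmQLFit, glmQLFTest, group as the only term), which tested 17351 genes at a common biological coefficient of variation of 0.494. P-values were two-sided and adjusted by the Benjamini-Hochberg method over all genes tested, with a threshold of 0.05. The F statistic and the log2 fold change gave the standard errors and 95% intervals. Counts of each library are given in full for members with an unadjusted p under 0.05, a call by any tool or the smallest p of their role, as CPM, and the others mostly by fold change. Every pair of libraries differed beyond sampling noise, with a chi-square per degree of freedom of at least 40.1. The library totals limit counting error only. The scripts were tested on simulated counts. Alternatives tried were limma-voom (limma 3.58.1) and DESeq2 1.42.0 as tests, upper quartile and size factor scaling, a floor of 5 CPM on the mean or no filter, a block for the replicate number, a term for the sex pattern, and the removal of each library.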

Additional observations from a re-analysis of the deposited data

How the results depend on the processing

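Of the 38 tested members, 23 kept the direction of their log2 fold change over all 13 alternatives, and 15 turned it in 21 values, all of them small. No member was called by edgeR under any alternative or by limma-voom, and DESeq2 called 3 higher, with log2 fold changes of 0.37 for Hnrnpm, 0.42 for Mbnl2 and 0.38 for Celf1. The causes of these movements were not tested.

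The whole-table counts depended strongly on the setting. Against 37 genes lower and 9 higher, DESeq2's size factors gave 7 and 3, no filter on low counts 346 and 198, a minimum mean of 5 CPM 233 and 143, DESeq2 633 and 383, limma-voom 71 and 23, and a term for sex 5 and 0. Leaving out single libraries gave 0 to 67 lower and 0 to 21 higher, with 1903 to 2079 genes at an unadjusted p under 0.05 where the count was 0 in both directions. The count of other regulators called lower was 1 with no filter, 1 with the minimum mean, 1 with limma-voom and 2 with DESeq2.

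The members' median log2 fold change, 0.04 in the report, was 0.055 with DESeq2's size factors, 0.059 with upper quartile scaling, 0.056 with the minimum mean and 0.055 with DESeq2, and between 0.015 and 0.116 with a library left out. The median over all genes was −0.01 in the report and 0.01 with the size factors. The other regulators' median was 0.029 with the sex term and 0.015 to 0.086 with a library left out. Srsf1 had a log2 fold change of −1.53 with the size factors (edgeR adjusted p = 0.0515) and between −1.80 and −1.32 with a library left out (edgeR adjusted p = 0.0509 to 0.22). The summed member level differed by 547 CPM with raw totals, 765 CPM with size factors and 799.9 CPM with upper quartile scaling, and by 380.2 to 853 CPM with a library left out. Without 1 SRSF1KO library, the lone remaining sample is taken to vary as WT does.

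The direction turned for Hnrnpf with upper quartile scaling (0.00085). With a library left out, the log2 fold change ran between −0.15 and 0.20 for Hnrnpab, between −0.15 and 0.032 for Hnrnpk, between −0.077 and 0.014 for Hnrnpa1, between −0.14 and 0.017 for Hnrnpa3, between −0.13 and 0.057 for Hnrnpl, between −0.17 and 0.017 for Hnrnpu, between −0.14 and 0.021 for Ptbp1, between −0.0998 and 0.12 for Hnrnpdl, between −0.078 and 0.053 for Hnrnpf, between −0.0051 and 0.15 for Hnrnpa2b1, between −0.082 and 0.22 for Elavl1, between −0.15 and 0.0805 for Tardbp, between −0.12 and 0.012 for Sfpq, between −0.0399 and 0.0899 for Nono, and between −0.15 and 0.052 for Matr3. It turned without WT replicate 1 in Hnrnpab and Hnrnpk, without SRSF1KO replicate 1 in Hnrnpk and Hnrnpf, without WT replicate 2 in Hnrnpa1, Hnrnpa3, Hnrnpl, Hnrnpu and Ptbp1, without SRSF1KO replicate 2 in Hnrnpl, Ptbp1, Hnrnpdl, Hnrnpa2b1, Elavl1, Tardbp, Sfpq, Nono and Matr3, and without WT replicate 3 in Hnrnpdl. Of the within-library ratios, 10 values moved by more than 1 SD, all of them with an SRSF1KO library left out.

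Whether the replicate numbers pair the samples is not known. Deviations from the group means correlated at −0.056 between the libraries numbered 1 and at −0.030 between those numbered 2. The deviations of the 2 SRSF1KO libraries are mirror images of each other, so these values cannot settle it. With the replicate number as a block 0 genes were called lower and 0 higher, with 1640 at an unadjusted p under 0.05, Srsf1 was at −1.59 (edgeR adjusted p = 0.314), the other regulators' median was 0.023, and Hnrnpdl turned to −0.073.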

Other observations

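Among the other regulators, the 6 further genes with an unadjusted p under 0.05 are given here, chosen after their values were seen. None of them was called by edgeR's quasi-likelihood test with Benjamini-Hochberg adjustment. Rbm3, which like Cirbp is a cold-inducible RNA-binding protein, had 187 and 197 CPM in SRSF1KO libraries, against 225, 255 and 239 CPM in WT libraries, at a log2 fold change of −0.32 ± 0.10 (edgeR adjusted p = 0.228). Rbmx, which encodes hnRNP G, had 204 and 203 CPM in SRSF1KO libraries, against 166, 128 and 169 CPM in WT libraries, at 0.40 ± 0.14 (edgeR adjusted p = 0.264). Ptbp2, the relative of Ptbp1 best known from neurons, had 39.8 and 44.3 CPM in SRSF1KO libraries, against 30.4, 31.4 and 32.3 CPM in WT libraries, at 0.42 ± 0.16 (edgeR adjusted p = 0.293). Celf5, a paralogue of Celf1, had 6.46 and 4.17 CPM in SRSF1KO libraries, against 1.9, 2.28 and 1.71 CPM in WT libraries, at 1.43 ± 0.45 (edgeR adjusted p = 0.224). Pcbp3, a paralogue of Pcbp1, had 33.5 and 29.6 CPM in SRSF1KO libraries, against 14.3, 23.7 and 17.4 CPM in WT libraries, at 0.77 ± 0.25 (edgeR adjusted p = 0.241). Sugp2, which encodes a protein related to splicing factors, had 127 and 140.5 CPM in SRSF1KO libraries, against 117, 83.0 and 109 CPM in WT libraries, at 0.38 ± 0.16 (edgeR adjusted p = 0.338). The groups did not overlap in any of these 6 genes; over all genes tested, both SRSF1KO libraries stood above all WT libraries in 15.2% and below them in 17.8%.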
